A study of Mus musculus with 6 samples.

Results

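B1-like and memory-like B cells of the mouse liver were defined here by 2 transcription factors, Zbtb32 and Bhlhe41, among barcodes that express the B cell receptor component Cd79a. A barcode was a member when it had no assembled T cell receptor (TCR) contig, at least 2 unique molecular identifiers (UMIs) of Cd79a, at least 1 UMI of Zbtb32 and Bhlhe41 together, and none of Fcer2a, Vpreb3, Siglech, Cd3d, Cd3e, Ncr1 and Lyz2. Of 23860 barcodes, 210 met the rule: 37 of 6479 from wild-type mice (WT) given a high-fat diet (HFD), 125 of 10228 from WT mice on the diet with hyodeoxycholic acid (HDCA), and 48 of 7153 from knockout mice on the diet with HDCA. Of these 210 cells, 91 had Zbtb32 only, 57 Bhlhe41 only and 62 both factors.

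B-1 cells are innate-like lymphocytes that renew themselves, secrete natural IgM and use a restricted set of receptors, and Bhlhe41 is a repressor needed for their maintenance. Memory B cells are long-lived cells that have met antigen, and Zbtb32 is a repressor of their recall response. Both kinds differ from the recirculating follicular B cells, which carry IgD and the low-affinity IgE receptor encoded by Fcer2a, and from recent bone marrow emigrants, which carry Vpreb3.

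The series compared CD45-positive mononuclear cells of the liver by droplet RNA sequencing with TCR sequencing of the same cells. All mice were fed a diet with 60% fat for 12 weeks. The first group is called WT HFD, the next WT HFD+HDCA (0.25% of the bile acid in the food) and the last iNKT KO HFD+HDCA, in which mice lacking the Ja18 segment of the TCR received the food with the bile acid. Each group was 1 RNA library and 1 TCR library, how many mice went into each is not stated in the labels, and a normal diet named in the design was not analysed here. The knockout removes invariant natural killer T (iNKT) cells from the whole animal, not from B cells. The labels name CD45 in the sorting text and CD4 in the treatment text. B cells, by the gates that all B cell populations here share, made up 31.5%, 31.9% and 34.9% of the barcodes. The targeted segment was checked in the TCR libraries: TRAV11 or TRAV11D was joined to TRAJ18 in 356 barcodes of WT HFD, in 495 barcodes of WT HFD+HDCA and in 1 of 2318 barcodes of the knockout.

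The libraries held 44332213, 70776925 and 46600746 UMIs, with WT HFD given first, then WT HFD+HDCA, then the knockout, an order kept below. Members had 318200, 1506822 and 383881 of them. Their median depth was 7360, 9626 and 7340.5 UMIs per cell, against 4452, 4308 and 4081 UMIs in follicular-type B cells. A gate on 2 sparse transcripts keeps deeper cells more often, and members of WT HFD+HDCA were also the deepest of the 3. Mitochondrial UMIs reached at most 4.15%, 7.64% and 6.07% in a member, and none of the 210 was called a doublet by Scrublet. It called 3.75% to 4.83% of the barcodes of a library, but only 0.0979%, 0.153% and 0.280% of the B cells. At such low shares, the lack of calls among 210 members cannot show whether members hold more doublets than other B cells. The libraries shared 67 to 93 cell barcodes pairwise, none of them a member in both.

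The values of the gate genes only describe the choice of members. Zbtb32 stood at 236, 259 and 250.1 CPM (UMIs of a gene scaled to a fixed total of 1e6 UMIs of the members), Bhlhe41 at 91.1, 121 and 93.8 CPM, and the median member had 26, 27 and 27 UMIs of Cd79a. Just inside the threshold, 74 members had exactly 1 UMI of the 2 factors, while 47 had 2 UMIs and 89 had 3 or more. Of 352 B cells with either factor, 252 had no Fcer2a, and the 210 of these without Vpreb3 were the members, while 672 cells with neither receptor gene had no UMI of the 2 factors. T cells were read beside the members as a gauge of free RNA, and of them 2.92%, 4.33% and 3.07% had a Zbtb32 UMI and 0.333%, 0% and 0% a Bhlhe41 UMI. Whether Zbtb32 UMIs in T cells are free RNA or their own transcripts was not tested, nor was the part of free RNA in the 74 members with 1 UMI.

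Members made up 1.81% of the B cells in WT HFD (exact 95% Clopper-Pearson interval 1.28 to 2.49), 3.83% in WT HFD+HDCA (3.20 to 4.55) and 1.92% in the knockout (1.42 to 2.54). The share with HDCA in WT mice was 2.12 times that without it, and the knockout share was 0.501 times that of WT mice on the same food. Per barcode the ratios were 2.14 (conditional exact 95% interval 1.47 to 3.18) and 0.549 (0.385 to 0.772). These intervals cover counting error only, since 1 library per group gives no error between mice and no test, and both ratios use the same WT HFD+HDCA library. When every cell was thinned to 2000 UMIs before the gate, the ratios per barcode were 1.55 (0.971 to 2.55) and 0.612 (0.375 to 0.974). Without cells of at least 3 Jchain UMIs, described further on, they were 1.94 (1.31 to 2.92) and 0.601 (0.415 to 0.859). Follicular-type cells were 36.5%, 37.2% and 32.5% of B cells.

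**Figure D1:**
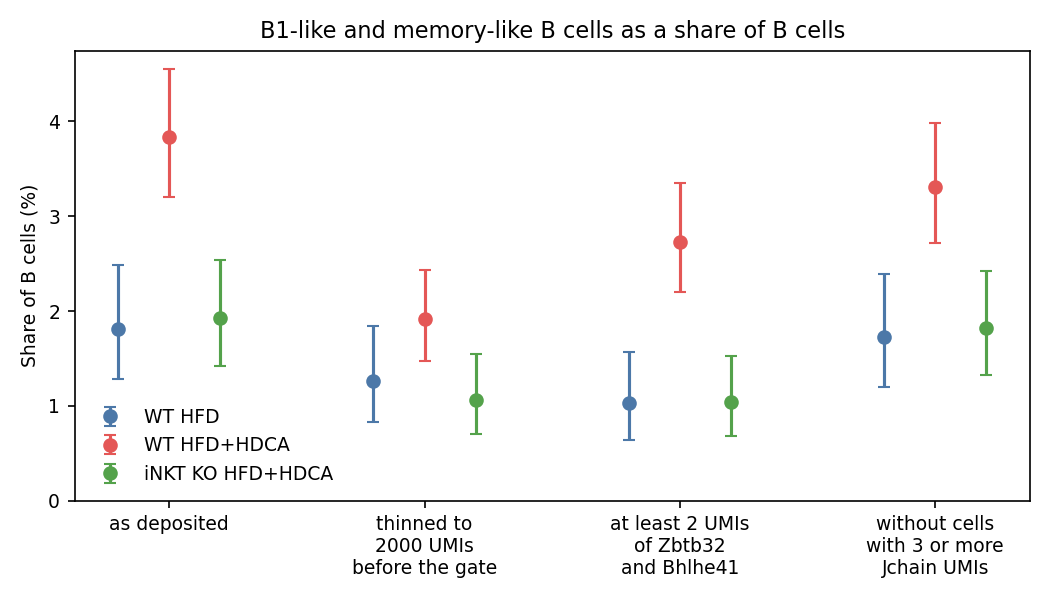
Members as a percentage of the B cells of each library (vertical axis) as deposited, after thinning to 2000 UMIs, with a gate of 2 UMIs of the factors and without cells of 3 or more Jchain UMIs (horizontal axis), with exact 95% counting intervals as bars. WT HFD+HDCA has the highest share in all 4, as deposited 3.83% against 1.81% and 1.92%, and the intervals overlap after thinning.

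The label was checked against genes that the gate did not use. UMIs were summed per library in members and in follicular-type B cells (Fcer2a at least 1 UMI, no Vpreb3, neither factor; 745, 1213 and 811 cells), and the 3 pairs were compared across 8951 genes with edgeR's quasi-likelihood test, the library as a block and Benjamini-Hochberg adjustment. At an adjusted p under 0.05, 1438 genes (16.1%) were higher in members and 1016 (11.4%) were lower. With the library as a block, the p-values rest on how much differences between populations vary from library to library. That variation was estimated over all 12 sums of the fit, including those of other B cell populations described further on. The 3 libraries differ in treatment, so it is not a spread between mice treated alike. Summed counts cannot tell fewer expressing cells from less RNA per cell. With all cells thinned to 2000 UMIs the test called 483 genes higher and 345 lower, and without WT HFD+HDCA, the library with most members, 675 and 432.

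Genes of B-1 cells were higher in members: 12 of 14 on the list passed the test and none was lower, with a median log2 difference of 2.98 against -0.01 over all genes tested. Cd9, a tetraspanin of B-1 and marginal zone cells, stood at 138, 178 and 167 CPM in members and at 7.01, 6.87 and 5.82 CPM in follicular-type cells, with no overlap between the populations. Its log2 difference was 4.80 (SE 0.19, edgeR's quasi-likelihood test, Benjamini-Hochberg adjusted p = 4.1e-15, n = 3 libraries). At least 1 Cd9 UMI was found in 56.8%, 71.2% and 52.1% of members, and after thinning in 27.8%, 25.6% and 16.7%, against 2.55%, 2.64% and 2.22% of unthinned follicular-type cells.

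Sox5, a transcription factor of the SoxD group, was at 226, 151 and 245 CPM against 12.0, 9.29 and 10.8 CPM (log2 difference 4.40, SE 0.24). Spn, which encodes CD43, the surface sialoglycoprotein used to gate B-1 cells, was at 119, 117 and 49.5 CPM against 8.48, 6.50 and 6.69 CPM (3.98, SE 0.22). Its knockout value was the lowest of the 3 and still above every follicular value. Itgam, the CD11b chain of the complement receptor CR3, was at 94.3, 42.5 and 10.4 CPM against 0, 0.186 and 1.45 CPM (6.55, SE 0.57). The inhibitory receptor Ctla4, by contrast, was nearly level across libraries, at 107, 113 and 99.0 CPM against 2.63, 3.34 and 3.20 CPM (5.27, SE 0.20). Il5ra, the receptor for the B-1 growth factor interleukin 5, was at 66.0, 71.7 and 162 CPM against 39.5, 32.7 and 42.7 CPM (1.51, SE 0.16), so its populations lay closer together. Plac8 (log2 difference 2.53), Plscr1 (4.20), Arid3a (2.97), Ahnak (2.33) and Tnfrsf13b (0.71) also passed.

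Cd5, the marker that separates B-1a from B-1b cells, was sparse. It had 4, 15 and 5 UMIs in members (12.6, 9.95 and 13.0 CPM against 0.877, 1.49 and 2.33 CPM; log2 difference 3.00, SE 0.55, edgeR adjusted p = 0.00017). Only 5.41%, 9.60% and 10.4% of members had a Cd5 UMI, so most members cannot be assigned to either branch at this depth. Among T cells the share was 68.3%, 66.1% and 63.0%. Siglecg (log2 difference 0.27, adjusted p = 0.055) and Pdcd1lg2 (0.16, adjusted p = 0.62) did not pass edgeR's test.

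**Figure D2:**
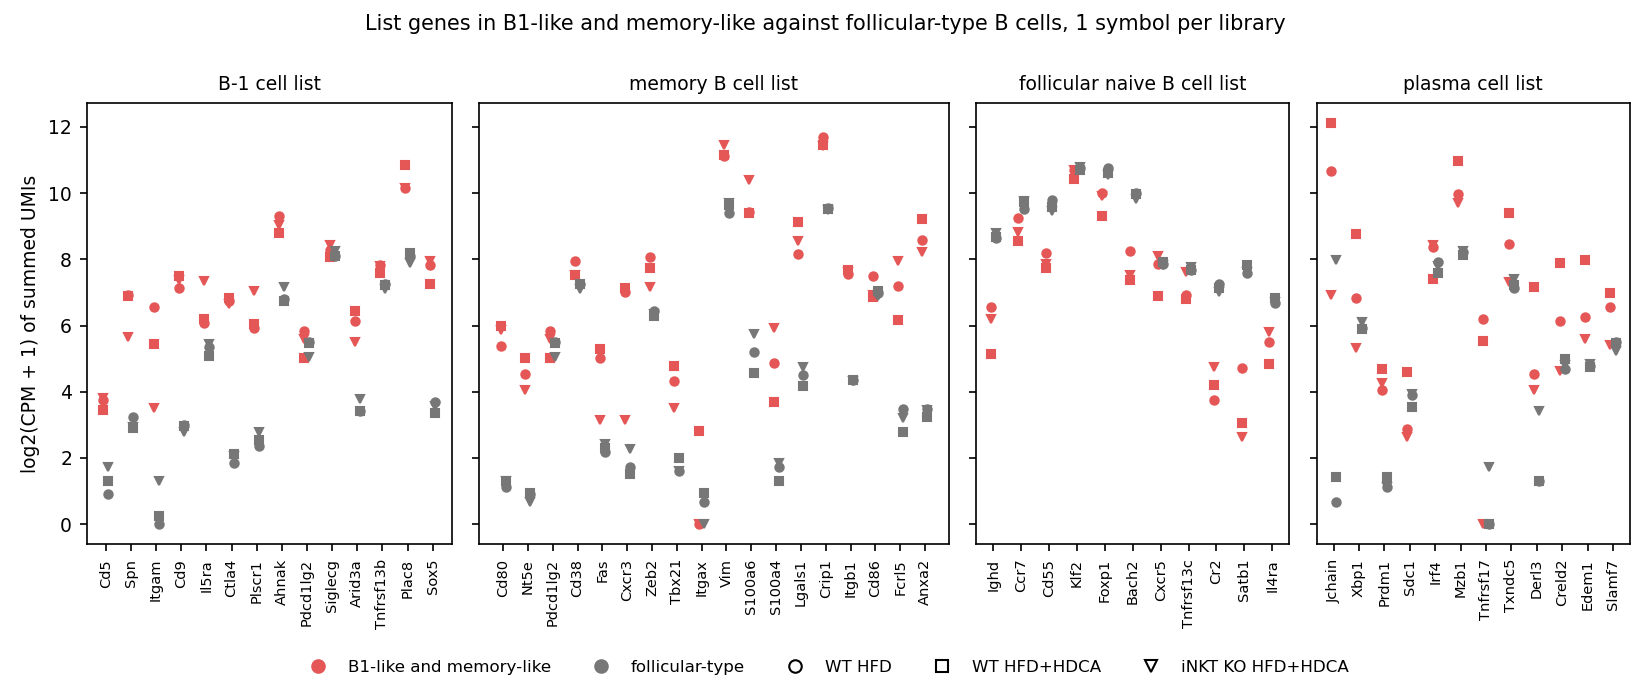
Levels of genes of 4 lists as log2(CPM + 1) of summed UMIs (vertical axis) in members and follicular-type cells, 1 symbol per library. Members lie above the follicular-type points for Cd9, Sox5, S100a6 and Anxa2 and below them for Ighd, Cr2 and Satb1 in all 3 libraries.

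Genes of memory B cells were higher too, 15 of 17 tested, none lower, with a median log2 difference of 3.56. Cd80, a ligand of CD28 and CTLA-4 that marks memory subsets, stood at 40.9, 62.4 and 57.3 CPM against 1.17, 1.49 and 1.45 CPM (log2 difference 5.45, SE 0.35, edgeR adjusted p = 1.4e-11). S100a6, a calcium-binding protein, was at 688, 675 and 1342 CPM against 35.9, 22.5 and 52.9 CPM (4.79, SE 0.15), and 70.3%, 62.4% and 66.7% of members had a UMI of it. Its level in T cells was 736, 684 and 639.7 CPM, so S100a6 separates members from follicular B cells but not from T cells.

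Anxa2, a phospholipid-binding annexin, had 380.3, 589 and 299.6 CPM against 10.2, 8.36 and 9.89 CPM (5.76, SE 0.26). Lgals1, a galectin, followed with 283, 559 and 373 CPM against 21.9, 17.1 and 25.6 CPM (4.53, SE 0.19). The integrin chain Itgb1 was level at 189, 205 and 195 CPM against 19.3, 19.3 and 19.2 CPM (3.56, SE 0.14). Fcrl5, an Fc receptor-like protein of innate-like B cells, varied more, at 145, 71.0 and 245 CPM against 10.2, 5.94 and 8.14 CPM (4.27, SE 0.20), and was nearly absent from T cells (0, 0.224 and 0.127 CPM). Nt5e (CD73, log2 difference 5.10), Fas (3.10), Tbx21 (T-bet, 3.21), S100a4 (3.86), Crip1 (2.18), Zeb2 (1.59) and Cd38 (0.63) passed as well, while Cd86 (0.23, edgeR adjusted p = 0.22) did not.

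Against immature-type B cells (Vpreb3 at least 1 UMI, no Fcer2a, neither factor), 1044 genes (11.7%) were higher and 710 (7.93%) lower in members, with 12 of 14 B-1 genes and 17 of 17 memory genes higher. Against the remaining B cells without Fcer2a, Vpreb3 or either factor, 861 genes (9.62%) were higher and 536 (5.99%) lower. That population differs from members by rule only in the 2 factors, but it also differed in depth. Its median was 4128, 4122 and 3873 UMIs per cell, against 7360, 9626 and 7340.5 UMIs in members. In this comparison 13 of 14 B-1 genes and 14 of 17 memory genes were higher, with medians of 2.11 and 1.72. All 3 comparisons use the same sums of members. Of 7803 B cells by the shared gates, 2769 were follicular-type, 702 immature-type, 672 the remaining cells and 210 members. The other B cells had both Fcer2a and Vpreb3, or either factor together with Fcer2a or Vpreb3. They entered none of these populations and outnumbered follicular-type cells, so the comparisons leave out a large part of the B cells.

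The genes furthest above follicular-type cells were named by a rule of size and included several known from myeloid cells. Pstpip2, an adaptor of the actin cytoskeleton, led with 50.3, 37.8 and 78.1 CPM against 0.292, 0 and 0.291 CPM (log2 difference 7.98, SE 0.47). Dnm3, a dynamin, followed with 107, 108 and 15.6 CPM (6.73), and its knockout value stood apart from the other two. Fgl2 (6.41), Cd300lf (6.37), Ly6c2 (6.05), Fcer1g (5.34) and Tent5c (5.30) completed the group with Itgam, Anxa2, Cd80, Cxcr3 and Ctla4. Fcer1g encodes the common gamma chain of Fc receptors, and Ly6c2 the Ly6C antigen of monocytes and memory lymphocytes, at 145, 329.8 and 28.7 CPM.

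Myeloid markers were read beside these genes. Summed over the myeloid list, members had 506, 632 and 466 CPM against 364, 365 and 399 CPM in follicular-type cells, and 3 of 4 listed genes tested were higher. C1qa, C1qc and Clec4f were at 0 in members of all 3 libraries. The T cell list summed to 484, 433 and 513 CPM against 392, 404 and 386 CPM, with Cd8a and Thy1 at 0 throughout. The list of plasmacytoid dendritic cells summed to 456, 458 and 362 CPM against 241, 208 and 222 CPM. Natural killer cell genes were low, at 18.9 to 31.3 CPM in members and 32.9 to 37.1 CPM in follicular-type cells, and basophil genes were at 0. Hepatocyte genes summed to 3.14, 13.3 and 5.21 CPM in members. The part of these cells in the results was not tested.

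Genes of naive follicular cells were lower in members: 10 of 12 passed and none was higher, with a median of -1.44. Ighd, the IgD heavy chain, stood at 94.3, 34.5 and 72.9 CPM against 401, 406 and 442 CPM (log2 difference -2.72, SE 0.17, edgeR adjusted p = 1.1e-11). Cr2, the complement receptor CD21, was at 12.6, 17.3 and 26.0 CPM against 150.2, 139.9 and 129 CPM (-2.75, SE 0.18). Bach2, a repressor that holds B cells back from plasma cell differentiation, was at 305, 166 and 182 CPM against 1019, 1011 and 909 CPM (-2.07, SE 0.13). Satb1, a chromatin organizer, was at 25.1, 7.30 and 5.21 CPM against 191, 225 and 196 CPM (-4.27, SE 0.23). In each of these genes the 3 member values lay below the 3 follicular values. Ccr7, a chemokine receptor that guides cells into lymph nodes, was also lower, by 0.63 on the log2 scale, while Klf2 and Cxcr5 did not pass.

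The genes furthest below follicular-type cells had few or no UMIs in members. Cdkl1, a kinase, had 0 UMIs in members and 128 in follicular-type cells, at least 7.70-fold lower against a floor of 3 counts over the members. Sox4, a transcription factor of early B cells, had 0 against 115 UMIs, at least 6.92-fold lower. Tnik (-5.68), Rflnb (-5.49), Car2 (-5.45) and Tmem108 (-5.11) had 3 or fewer UMIs in all members together. Il12a, the p35 chain of interleukins 12 and 35, had 0, 1.99 and 0 CPM against 23.7, 38.1 and 32.0 CPM (log2 difference -4.33, SE 0.52).

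Other lists of B cell functions were less uniform. For innate sensing, 5 of 10 genes were higher, among them Cd180 (log2 difference 1.04), Tlr7 (1.13), Tlr9 (0.94) and Tlr2 (1.37), and Tlr1 was lower (-0.88). For antigen presentation, 11 of 16 were lower and 1, Cd80, was higher. Icosl, the ligand of the T cell costimulator ICOS, was at 34.6, 6.64 and 28.7 CPM against 131, 132 and 119 CPM (-2.87, SE 0.25), and Cd40 was lower by 1.10, whereas the class II genes H2-Aa (-0.27) and Cd74 (-0.29) differed little. H2-Ab1 (-0.07) and H2-Eb1 (-0.05) did not pass edgeR's test. Of 8 cytokine genes 4 were higher and 2 lower, Il12a (-4.33) among the lower. Il10 had 3, 14 and 8 UMIs in members and 1 UMI in all follicular-type cells (log2 difference 6.51, SE 0.79). Lgals3 (2.41), Ebi3 (1.72) and Cd274 (PD-L1, 1.09) were higher too. Il10 UMIs were also present in T cells, at 6.83, 4.03 and 1.46 CPM against 9.43, 9.29 and 20.8 CPM in members.

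Of the migration and adhesion genes, integrin chains and Cd44 were higher (Itgb7 by 1.08, Itgal by 0.63, Itga4 by 0.74, Itgb2 by 0.48, Cd44 by 2.09) and the receptors went both ways, with Cxcr3 higher (5.40) and Ccr6 (-2.07), Cxcr4 (-1.01) and Gpr183 (-0.76) lower. In all, 8 of 16 were higher and 5 lower. Of 18 immediate early genes 8 were lower, Junb by 1.17 and Dusp2 by 1.40 on the log2 scale, and 2 were higher, Atf3 (3.04) and Klf6 (0.40). Of 14 interferon response genes 6 were lower and 3 higher. The share of all genes called higher was 16.1% and lower 11.4%, and counts near these are not results about a list. Sterol synthesis genes were higher in 3 of 12, near that share, among them Cyp51 (1.63) and Mvd (1.61). The bile acid receptors Nr1h4, Gpbar1, Nr1i2, Nr1i3 and Vdr and the GLP-1 receptor Glp1r had 0 UMIs in members of every library, and Nr1h2, the liver X receptor beta, was at 66.0, 64.4 and 80.8 CPM (log2 difference 0.06, not passing the test).

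Some members carried the transcripts of antibody secretion. Of 12 plasma cell genes 11 were higher than in follicular-type cells (median 2.39), while 9 were higher than in immature-type cells (median 1.19) and 5 than in the remaining B cells (median 0.81), with none lower. Summed over the list, members had 3784, 8574 and 1644 CPM and the remaining B cells 3889, 4734 and 5121 CPM, so members were the higher of the 2 in WT HFD+HDCA alone. Jchain, the joining chain of secreted IgM and IgA, was found at 3 UMIs or more in 2 of 37, 18 of 125 and 3 of 48 members (5.41%, 14.4% and 6.25%), and at 100 UMIs or more in 1, 11 and 0. The cell with most Jchain held 504 of 517 UMIs in WT HFD, 1313 of 6719 in WT HFD+HDCA and 33 of 46 in the knockout. Cells with 3 UMIs or more had a median depth of 22547, 24061 and 7420 UMIs against 7266, 8675 and 7261 UMIs in the other members. Xbp1, the transcription factor that builds the secretory apparatus, reached 3 UMIs in 3, 24 and 0 members. Proliferation transcripts (Mki67 and Top2a together at least 2 UMIs) were seen in 3, 17 and 1 members. Leaving out cells with at least 3 Jchain UMIs from every population, a choice made after the values were seen, left 8 of 12 plasma cell genes higher, Xbp1 by 0.51 and Creld2 by 0.93 on the log2 scale against 1.96 and 2.50 with them.

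**Figure D3:**
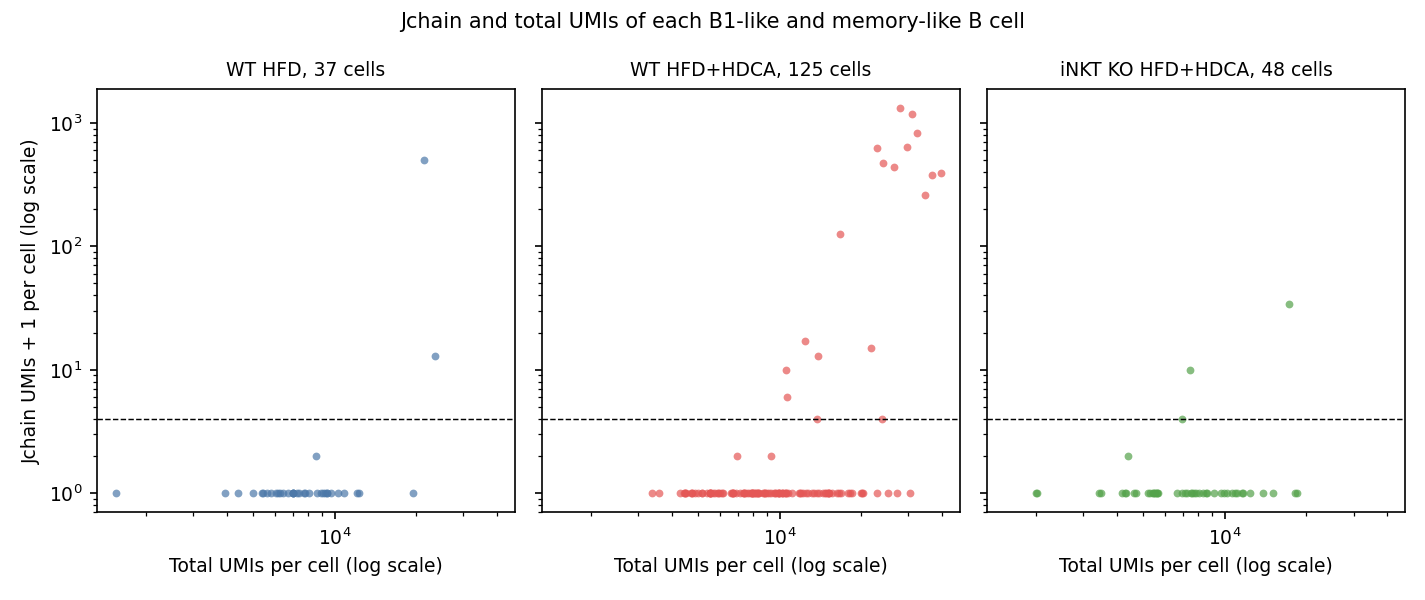
Jchain UMIs plus 1 of each member (vertical log axis) against the cell's total UMIs (horizontal log axis), in the 3 libraries, with a dashed line at 3 UMIs. At or above the line are 2, 18 and 3 members, and 11 of the 12 members with 100 Jchain UMIs or more are from WT HFD+HDCA.

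The members' receptors were read from the heavy chain genes. A cell was called switched when IgG and IgA constant UMIs reached 3 and exceeded those of Ighm and Ighd. Switched cells were 4 of 37 members in WT HFD (10.8%, exact 95% interval 3.03 to 25.4), 8 of 125 in WT HFD+HDCA (6.40%, 2.80 to 12.2) and 3 of 48 in the knockout (6.25%, 1.31 to 17.2). Follicular-type cells had 0 of 745, 2 of 1213 (0.165%) and 3 of 811 (0.370%), and T cells none. Immature-type cells had 1 of 144 (0.694%), 3 of 284 (1.06%) and 2 of 274 (0.730%). The remaining B cells had 1 of 169 (0.592%), 4 of 254 (1.57%) and 4 of 249 (1.61%), with upper limits of 3.25%, 3.98% and 4.06% by the exact interval. In each library that interval overlapped the one of members. By class the switched members were 2 Ighg3 and 2 Igha in WT HFD; 1 Ighg2b, 1 Ighg2c, 3 Ighg3 and 3 Igha in WT HFD+HDCA; and 1 Ighg2b, 1 Ighg2c and 1 Igha in the knockout. Most members, 32, 113 and 43, were unswitched. With 10 UMIs required in place of 3, switched members numbered 4, 6 and 1 (10.8%, 4.80% and 2.08%) and unswitched members 21, 95 and 28.

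Among heavy chain UMIs of members, IgM outnumbered IgD by 20.1, 125 and 19.4 to 1, against 2.58, 2.57 and 2.33 to 1 in follicular-type cells. Other B cells lay between, with 4.90, 7.02 and 5.11 to 1 in immature-type cells and 10.2, 5.51 and 7.12 to 1 in the remaining B cells. Without cells of at least 3 Jchain UMIs the members' ratios were 12.8, 41.4 and 17.4, still above every follicular value. Those of the remaining B cells were then 6.22, 3.34 and 2.98, and those of immature-type cells 4.90, 5.10 and 5.01. The median member had 10, 17 and 10 Ighm UMIs and the median follicular-type cell 4. The same rule called 19.4%, 19.1% and 16.4% of T cells unswitched, so the unswitched call alone does not show a B cell. Whether these Ighm and Ighd UMIs in T cells are free RNA or their own transcripts was not tested. The constant genes of light chains were not read as kappa or lambda: Iglc1 to Iglc3 exceeded Igkc in 79.7% to 89.2% of members although 118 of 125 members of WT HFD+HDCA had a leading kappa V segment.

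A pair of V segments known from mouse B-1a cells, Ighv11-2 with Igkv14-126, which binds phosphatidylcholine, was among the members' receptors. It was the leading pair in 0 of 32, 6 of 117 (5.13%, exact 95% interval 1.91 to 10.8) and 7 of 44 members (15.9%, 6.64 to 30.1) with both segments called. In follicular-type cells it was found in 0 of 671, 0 of 1094 and 0 of 736 cells, and in the remaining B cells without Fcer2a, Vpreb3 or either factor in 0 of 153, 1 of 217 and 2 of 206. The 0 of 32 in WT HFD allows a share of up to 10.9% by the exact interval, so its distance from the other libraries is not resolved. Another pair of that specificity, Ighv12-3 with Igkv4-91, led in 0, 0 and 1 members. Igkv5-39 was the leading kappa segment in 21 of 118 members of WT HFD+HDCA. Receptors were otherwise diverse, with 28, 49 and 26 different Ighv segments among 36, 124 and 48 members.

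**Figure D4:**
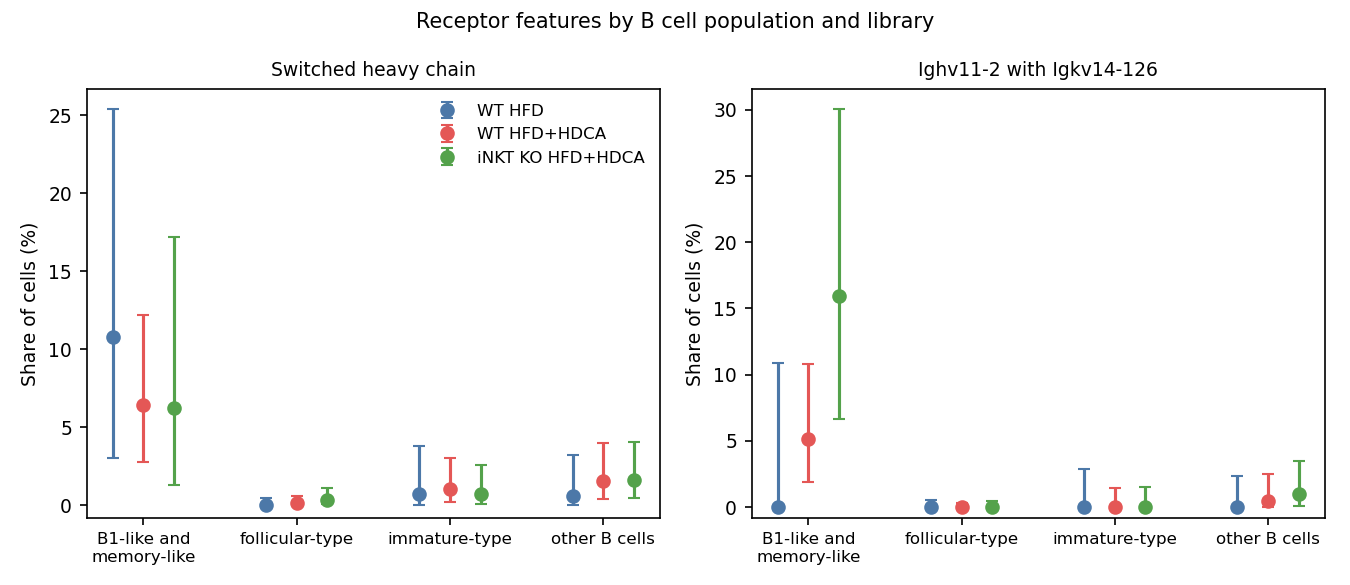
Percentage of cells with a switched heavy chain (left) and with Ighv11-2 and Igkv14-126 as leading segments (right) in 4 B cell populations, with exact 95% counting intervals as bars and 1 colour per library. Switched cells are 6.25% to 10.8% of members, at most 0.370% of follicular-type cells and at most 1.61% of the remaining B cells. The V pair reaches 15.9% in members of the knockout.

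Over all libraries, switched members had little Sox5 (10.5 CPM against 195 CPM in unswitched members), Il5ra (10.5 against 91.2 CPM) and Zeb2 (57.5 against 223 CPM), and none of the 24 Cd5 UMIs. Their Itgam stood higher, at 115 against 38.3 CPM, and their Jchain at 18985 against 1839.8 CPM, with none in the 3 switched members of the knockout. These values pool 3 treatments, rest on 15 switched cells and were not tested.

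Within members, levels with HDCA were divided by those of WT HFD, and levels of the knockout by those of WT HFD+HDCA. Both ratios share 1 library, none was taken between the knockout and WT HFD, and none has a replicate check. Of 4362 genes with at least 50 UMIs in the libraries compared, 403 (9.24%) were at least 1.5-fold higher with HDCA and 656 (15.0%) at least 1.5-fold lower. In the knockout 650 of 4487 (14.5%) were higher and 522 (11.6%) lower. With TMM factors in place of plain totals the counts were 662 and 319 with HDCA, and 363 and 773 in the knockout, so the balance of higher and lower genes depends on the scaling. The share higher among genes past the fold moved from 38.1% to 67.5% with HDCA and from 55.5% to 32.0% in the knockout. The median gene moved from -0.10 to 0.09 and from 0.08 to -0.08 on the log2 scale, shifts against which the lists below should be set.

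Plasma cell genes had opposite directions in the 2 ratios. With HDCA, 10 of 12 were higher (median log2 ratio 1.22), 9 of them past 1.5-fold, where 14.2% of genes with at least 20 UMIs were. In the knockout 11 of 12 were lower (-2.29), 10 past 1.5-fold against 15.8% of such genes. Without cells of at least 3 Jchain UMIs, 5 of 7 measured genes were higher with HDCA (median 0.38), 1 past 1.5-fold, and 6 of 8 were lower in the knockout (-0.84), 4 past 1.5-fold. The same genes had medians of -0.03 and 0.21 in follicular-type cells. Their sum in immature-type cells was 1950, 3875 and 4237 CPM, higher with HDCA as in members, and in the remaining B cells it was also higher with HDCA. In neither was it lower in the knockout. Xbp1 was at 113, 435 and 39.1 CPM, highest in WT HFD+HDCA, with ratios of 3.85 (95% interval 2.75 to 5.54) and 0.0898 (0.0499 to 0.149). Jchain was at 1625, 4459 and 119.8 CPM, ratios 2.74 and 0.0269. In the knockout follicular-type gate it was 149 times higher than in WT, from 2 cells with at least 3 Jchain UMIs. Derl3, which moves misfolded protein out of the endoplasmic reticulum, was at 22.0, 142 and 15.6 CPM (6.46 and 0.110), but without cells of at least 3 Jchain UMIs its ratios were 1.35 and 1.15, so that of the knockout turned. Irf4 went the other way, at 333, 169 and 346 CPM (0.506 and 2.06), and the survival receptor Tnfrsf17 (BCMA) had 68 UMIs with HDCA in WT and 0 in the knockout, at least 5.77-fold lower.

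Among the genes named by size were some of the endoplasmic reticulum, which form no list of their own and are grouped here after their values were seen. Dnajc3, a co-chaperone that restrains the kinase PERK, was at 47.1, 189.8 and 59.9 CPM (ratio with HDCA 4.03, 2.40 to 7.29). Sdf2l1 was at 40.9, 153 and 20.8 CPM (3.74 and 0.137), Creld2 at 69.1, 237 and 23.4 CPM (3.43 and 0.0990), and Hsp90b1, the chaperone GRP94, at 773, 1877 and 320.4 CPM (knockout ratio 0.171, 0.141 to 0.204). Each was highest in WT HFD+HDCA, and in follicular-type cells the same ratios lay between 0.851 and 1.25. Without cells of at least 3 Jchain UMIs the ratios with HDCA were 1.41 (0.862 to 2.44) for Xbp1 and 1.57 (0.823 to 3.28) for Creld2, and in the knockout 0.375 (0.193 to 0.670) and 0.360. Those ratios are closer to 1 than with all members, and the intervals with HDCA include 1.

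Promoters of 4 genes named above are shown because they hold a recognizable element, and they were picked for that match. The endoplasmic reticulum stress element, CCAAT and CCACG with 9 bases between them, was searched on both strands in 300 bases around each start (250 before, 50 after) in RefSeq sequences of GRCm38.p6. It was found in 37 of 27025 genes (0.137%), in 1 of 10 genes named as higher with HDCA (Dnajc3), in 2 of 10 named as lower in the knockout (Creld2 and Hsp90b1) and in 2 of 11 matched plasma cell genes (Derl3 and Creld2). Sdf2l1 did not hold it. Capitals mark the CCAAT and CCACG parts of each match, or their complements on the other strand.
Creld2, chr15:88819396-88819695, plus strand: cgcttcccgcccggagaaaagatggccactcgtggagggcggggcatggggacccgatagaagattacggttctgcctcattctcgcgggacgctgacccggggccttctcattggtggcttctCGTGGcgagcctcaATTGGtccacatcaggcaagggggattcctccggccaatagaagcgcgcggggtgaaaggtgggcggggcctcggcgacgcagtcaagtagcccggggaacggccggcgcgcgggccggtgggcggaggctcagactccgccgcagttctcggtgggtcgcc
Hsp90b1, chr10:86705395-86705694, minus strand: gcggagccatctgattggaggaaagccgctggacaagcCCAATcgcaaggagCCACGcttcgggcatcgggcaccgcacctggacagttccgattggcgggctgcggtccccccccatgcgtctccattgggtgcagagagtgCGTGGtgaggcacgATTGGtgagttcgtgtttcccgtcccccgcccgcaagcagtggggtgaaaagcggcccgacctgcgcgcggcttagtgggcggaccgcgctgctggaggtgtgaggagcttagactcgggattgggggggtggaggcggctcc
Dnajc3, chr14:118937682-118937981, plus strand: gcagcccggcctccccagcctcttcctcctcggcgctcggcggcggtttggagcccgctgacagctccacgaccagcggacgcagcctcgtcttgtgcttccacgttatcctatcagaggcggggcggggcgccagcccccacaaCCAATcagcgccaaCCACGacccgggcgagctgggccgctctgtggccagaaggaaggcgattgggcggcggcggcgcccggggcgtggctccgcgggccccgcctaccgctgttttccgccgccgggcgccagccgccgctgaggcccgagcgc
Derl3, chr10:75893148-75893447, plus strand: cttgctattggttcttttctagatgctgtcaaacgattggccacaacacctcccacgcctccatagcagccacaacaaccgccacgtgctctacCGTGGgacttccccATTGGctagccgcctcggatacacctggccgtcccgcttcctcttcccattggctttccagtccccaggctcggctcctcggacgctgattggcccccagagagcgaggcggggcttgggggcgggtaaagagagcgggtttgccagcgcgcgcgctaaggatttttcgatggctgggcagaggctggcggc

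In Creld2 the match began 126 bases before the start, in Dnajc3 105 and in Derl3 156 bases before it, and Hsp90b1 had 2 matches, 212 and 107 bases before it. The element is a letter match, and no binding was measured here. None of 11 matched sterol synthesis genes held it. The E-box CACGTG, the kind of site bound by Bhlhe41 and its relatives, is shown for the promoter of Bhlhe41 itself, where it began 153 bases before the start.
Bhlhe41, chr6:145865371-145865670, minus strand: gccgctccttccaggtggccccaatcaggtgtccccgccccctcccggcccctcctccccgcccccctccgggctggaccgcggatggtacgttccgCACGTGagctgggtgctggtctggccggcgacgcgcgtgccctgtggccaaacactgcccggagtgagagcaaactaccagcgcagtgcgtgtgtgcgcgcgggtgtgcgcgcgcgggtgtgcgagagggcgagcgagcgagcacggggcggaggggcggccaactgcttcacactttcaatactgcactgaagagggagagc

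This E-box was in 8.09% of the 27025 genes with a promoter sequence. It was in 3 of 30 B-1, memory and gate genes with a sequence (Bhlhe41, Fas and S100a6). None of the 11 matched genes named as higher in members held it.

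**Figure D5:**
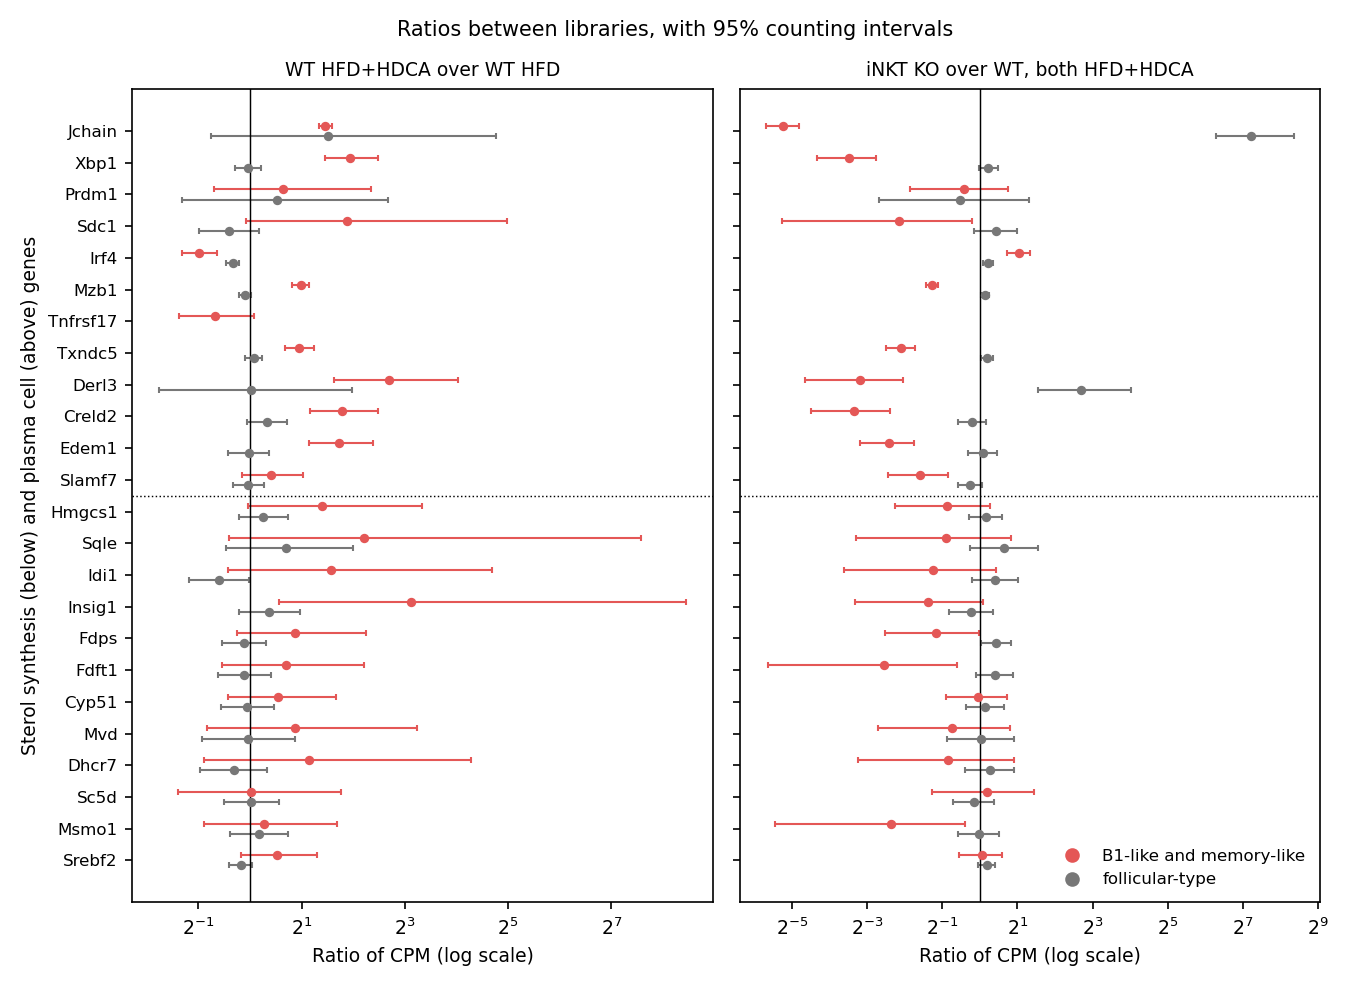
Ratios of CPM between libraries (horizontal log axis, bars are 95% counting intervals) for genes of the plasma cell list (upper rows) and of the sterol synthesis list (lower rows), with HDCA in WT mice on the left and for the knockout on the right, in members and follicular-type cells. Genes with a 0 count on one side are not drawn. Xbp1 lies at 3.85 and 0.0898 in members and near 1 in follicular-type cells.

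Sterol synthesis genes were also compared. Of 18 genes on the list, 13 had at least 20 UMIs in the libraries compared. Members of WT HFD+HDCA held 1506822 UMIs against 318200 and 383881, so a sparse gene passed more easily when high there. With HDCA 13 of 13 were higher in members (median log2 ratio 0.87), 9 past 1.5-fold against 14.2% of genes with at least 20 UMIs. The follicular-type median was -0.06. In the knockout 11 of 13 were lower (-0.90), 10 past 1.5-fold against 15.8% of such genes. Each gene was sparse. Hmgcs1, a synthase early in the pathway, had 4, 50 and 7 UMIs (12.6, 33.2 and 18.2 CPM; ratio with HDCA 2.64, 0.969 to 10.1). Insig1, which holds back the SREBP activators of sterol synthesis, had 1, 41 and 4 UMIs (8.66, 1.47 to 350). Fdft1, which makes squalene, had 6, 46 and 2 UMIs (knockout ratio 0.171, 0.0201 to 0.653). Most intervals of single genes included 1. Without cells of at least 3 Jchain UMIs the medians were 0.83 over 8 measured genes and -1.88 over 9.

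B-1 and memory genes had no common direction with HDCA, with 6 of 13 and 9 of 17 higher and medians of -0.03 and 0.04. Single genes differed: Plac8 was at 1144, 1836 and 1146 CPM (ratio 1.61, 1.44 to 1.80), Lgals1 at 283, 559 and 373 CPM (1.98, 1.59 to 2.48) and Fcrl5 at 145, 71.0 and 245 CPM (0.491). Genes of naive follicular cells were lower in 9 of 11 (median -0.66), Ighd at 94.3, 34.5 and 72.9 CPM (0.366, 0.229 to 0.594), and without cells of at least 3 Jchain UMIs the median was -0.32. Immediate early genes were lower in 13 of 16 (-0.58), 8 past 1.5-fold against 18.7% of genes with at least 20 UMIs. Dusp2, a nuclear phosphatase of ERK, was at 292, 109.5 and 412 CPM (0.375, 0.289 to 0.488). The urokinase receptor Plaur was also low with HDCA, at 365, 125 and 239.7 CPM (0.342, 0.270 to 0.435).

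Besides Xbp1, Dnajc3 and Sdf2l1, the genes named as highest with HDCA were sparse in WT HFD. Ndufaf3, an assembly factor of respiratory complex I, had 0 and 54 UMIs, at least 3.80-fold higher, and Ggta1, a galactosyltransferase, had 1 and 51 UMIs (10.8, 1.85 to 434). Tram2 (5.77), Isg20 (5.56), Etv6 (3.76), Pon3 (3.76) and Tpp1 (3.75) had 3 to 5 UMIs in WT HFD. At the low end, Foxo3, Dhx30, Rnf111, Kcnq5, Gabpb2, Vps13d and Or2m12 stood between 0.331 and 0.367. Ifitm3 was at 0.317, with 13 of its 22 WT HFD UMIs in 1 cell.

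In the knockout the chemokine receptor Cxcr3, which guides lymphocytes to interferon-induced ligands, was nearly missing from members. It had 41, 211 and 3 UMIs (129, 140.0 and 7.81 CPM), carried by 8, 43 and 2 cells, or 21.6%, 34.4% and 4.17% of members. After thinning the shares were 11.1%, 15.2% and 4.17%. The ratio to WT HFD+HDCA was 0.0558 (0.0114 to 0.165), while T cells of the 3 libraries had 175, 203 and 161 CPM and the ratio in follicular-type cells was 2.04 (0.824 to 5.19). Dnm3 (0.144, 0.0523 to 0.321), Itgam (0.245), Fas (0.203) and Spn (0.424, 0.249 to 0.682) were lower too. Ly6a2 had 144 UMIs with HDCA in WT and 0 in the knockout, at least 12.2-fold lower, and Myo1f had 67 and 0, at least 5.69-fold lower. Ly6a2 belongs to a family of near-identical genes, so its count is uncertain.

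Higher in the knockout were Fcrl5 (3.45, 2.59 to 4.59), Il5ra (2.25, 1.62 to 3.11), S100a6 (1.99, 1.78 to 2.21) and Plscr1 (1.98, 1.38 to 2.81). S100a6 was also higher in knockout follicular-type cells, by 2.36 (1.86 to 2.99). Antigen presentation genes were higher in 15 of 16 (median 0.24), 4 of them past 1.5-fold against 18.8% of genes with at least 20 UMIs, but without cells of at least 3 Jchain UMIs 4 of 14 were higher (median -0.087). Naive follicular genes were higher in 10 of 11 (0.59), 6 past 1.5-fold, and without those cells in 6 of 11 (0.24). Icosl was at 34.6, 6.64 and 28.7 CPM (4.32, 1.66 to 11.3). The 10 genes named by size were Nfkbid (6.41), Marcksl1 (5.89), Ets2 (5.42), Bcl2a1b (3.77), Dusp2 (3.76), Myc (3.75), Cd300lf (3.66), Fcrl5, Ppan (3.34) and Cyp4f18 (3.28). The knockout cell with most UMIs of the gene held 76 of 191 for Nfkbid, 50 of 158 for Dusp2 and 66 of 195 for Myc. Bcl2a1b has near-identical copies and is uncertain. B-1 genes were higher in 8 of 14 (median 0.22), but the median was -0.37 after thinning and -0.06 without cells of at least 3 Jchain UMIs, and memory genes were higher in 6 of 17 (-0.07).

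Slc15a2 and Dok2, genes that shifted throughout whole libraries in an earlier account of these data, had too few UMIs in members to follow, at 3, 23 and 0 and at 0, 2 and 3.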

How the data were processed

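Single-cell RNA and TCR libraries of 3 groups (6 samples) were analysed, 1 of each kind per group. The RNA matrices held deposited counts, whole UMIs per gene and barcode for 33696 genes, made with Cell Ranger 8.0.1 per the file headers; the submitters' processing notes name both mm10 and GRCm39. Of the TCR contig tables, which hold deposited counts, the barcodes and segment names alone were used. The kit named in the labels reads the 3′ end, but V segments were read in the RNA libraries, so they are reported.

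Members and gene lists were chosen with earlier results of these data known. Barcodes were used as deposited; a filter of at least 200 genes, under 10% mitochondrial UMIs and no Scrublet doublet (scanpy 1.11.5) was an alternative. UMIs were summed over 4 B cell populations in 3 libraries (12 sums); the gate genes and receptor V, D and J segments were removed, and edgeR 4.0.16 was run with filterByExpr, TMM factors and the library as a block, after a test on simulated data with 200 changed genes. DESeq2 1.42.0 was an alternative. The library is the pairing: each library gives 1 sum per population.

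Ratios between conditions used CPM over all UMIs of the members, exact 95% intervals (scipy 1.17.1) and a floor of 3 counts for groups at 0. Genes were named by rule. Between populations it took the 12 highest and 12 lowest of those past the threshold in the same direction in 3 libraries with at least 100 UMIs. Between conditions it required 50 UMIs, a 1.5-fold ratio and no cell with over 25% of the UMIs of both libraries together. It took 10 genes at either end, and a cell could still hold over 25% of the UMIs of its own library. List genes and Slc15a2 and Dok2 were named in any case. A planned test of switched against unswitched members was not run, since no library had 20 switched cells. List counts and medians cover whole lists, and 2 list genes are not reported here by name or drawn.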

Additional observations from a re-analysis of the deposited data

How the results depend on the processing

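The share ratios kept their direction under every gate and denominator tried, but with cells thinned to 2000 UMIs before the gate the ratio of the share of all barcodes with HDCA was 1.55, with an interval of 0.971 to 2.55 that includes no difference. Calls between populations depended on depth: thinning to 2000 UMIs left 483 higher and 345 lower genes against follicular-type cells, 428 and 256 against immature-type cells, and 310 and 230 against the remaining B cells. DESeq2 called 626 lower against follicular-type cells. Leaving out a library gave 675 to 1389 higher and 432 to 1025 lower genes against follicular-type cells, 524 to 957 and 358 to 650 against immature-type cells, and 366 to 798 and 224 to 542 against the remaining B cells, each lowest without WT HFD+HDCA. Without the replicate block that pairs the sums of a library, 1408 genes were higher against follicular-type cells, and no count of calls moved by over 1.5 times.

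Counts past 1.5-fold with HDCA were 147 higher and 259 lower at 100 UMIs per gene, 75 and 70 after thinning, and 662 and 319 with TMM factors, and 376 were lower without Jchain cells. In the knockout they were 271 and 267 at 100 UMIs per gene, 75 and 106 after thinning, and with TMM factors 363 were higher. Without Jchain cells 298 were higher.

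These values changed sign or side of 1, and the cause was not tested. Against follicular-type cells, Sdc1 had a log2 difference of -2.21 without Jchain cells and Irf4 one of -0.050 after thinning. Leaving out a library gave Edem1 values from -0.064 to 1.85 against immature-type cells, and against the remaining B cells from -0.16 to 1.57 for Edem1, -1.06 to 0.72 for Xbp1 and -1.77 to 1.65 for Derl3, each lowest without WT HFD+HDCA. Thinned Jchain stood at 1.02 against the remaining B cells. The antigen presentation median with HDCA was 0.030 with TMM factors and 0.044 without Jchain cells, and -0.087 in the knockout without them. The B-1 median in the knockout was -0.37 after thinning and -0.059 without Jchain cells. As ratios, Edem1 with HDCA was 0.894 without Jchain cells, and in the knockout thinned Sdc1 was 1.74 and Derl3 1.15 without Jchain cells. The alternative without Jchain cells (at least 3 UMIs) was chosen after seeing the data. Members number 37 and 48 in the smaller libraries, which limits genes under 20 UMIs. Where a setting left a denominator library at 0 UMIs of a gene (Ndufaf3 under all settings), no ratio was formed.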
